A study of Caenorhabditis elegans with 2 samples.

Results

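The regions described here are the 250 distal candidate regions on the X chromosome with the highest signal in a ChIP-seq profile of MBF-1, the multiprotein bridging factor of Caenorhabditis elegans. They were chosen by the authors' pooled signal value. A region entered when its summit lay more than 1000 bp from every annotated gene start of any biotype, and the 250 with the highest value were kept of 3027 distal X regions, 5855 X regions and 30000 candidate regions in all. The samples were 2 biological replicates of whole L2 larvae, labelled as pooled male and female, of strain OP427. Its genotype is unc-119(ed3) III with the integrated transgene wgIs427, which makes MBF-1 with GFP-FLAG at its C-terminus. Both replicates carry the same mutation and transgene, all cell types of the larva are mixed in each, and no untagged or untransformed group was analysed here. The signal value is the authors' own number for each region, on a scale that the sources used here do not state, and the read depth behind it is unknown.

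MBF1 proteins are small coactivators that join certain transcription factors to the TATA-binding protein. The X chromosome of the worm is itself the target of a chromosome-wide regulator, the dosage compensation complex, a condensin-containing assembly that lowers transcription from the X chromosomes of hermaphrodites. The complex is loaded at recruitment elements on X, known as rex sites, which carry copies of a sequence called the MEX motif, and it then spreads along the chromosome. The conserved core of that motif is GCGCAGGG. A match to these letters is a description of the sequence and not evidence of binding by the complex.

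The main pattern among the 250 regions was in sequence. The exact MEX core, on either strand within 100 bp of the summit, was in 11 of them (4.40%, exact Clopper-Pearson 95% interval 2.22 to 7.74%) and in 0 of the other 2777 distal X regions (0%), a count of 0 with an exact upper limit of 0.133% (a floor of 3 counts gives 0.108%). Of the 11, 10 ranked among the 16 highest regions and the last ranked 32nd. The region ranked 32nd overlaps the region ranked 2, so the 11 are not all separate loci. With overlapping regions counted once, the core was in 10 of 244 (4.10%). The share depends on the limit of distance, and among the 250 strongest regions over 2000 bp from a start it was 5 of 250 (2.00%). Allowing 1 mismatch, 19 of the 250 (7.60%) had a match, against 48 of the 2777 other distal X regions (1.73%). Of the 19, 14 were among the 16 highest, and ranks 17 to 250 had 5 of 234 (2.14%). The cut at rank 16 was chosen after the values were seen. Sequence was not used to choose the regions, but no test was made, and the intervals cover counting error only.

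The sequences that carry this pattern are shown as the 201 bases centred on the summit, on the plus strand of ce11, with capitals at each copy of the core with at most 1 mismatch. On the plus strand a copy on the minus strand reads CCCTGCGC. These are the 5 highest regions with an exact core and the 3 highest with none.
Rank 1, chrX:16682043-16682243: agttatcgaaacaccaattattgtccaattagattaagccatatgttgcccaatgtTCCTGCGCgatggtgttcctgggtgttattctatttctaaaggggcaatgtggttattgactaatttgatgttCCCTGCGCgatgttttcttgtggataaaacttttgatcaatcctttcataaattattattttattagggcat
Rank 2, chrX:2997012-2997212: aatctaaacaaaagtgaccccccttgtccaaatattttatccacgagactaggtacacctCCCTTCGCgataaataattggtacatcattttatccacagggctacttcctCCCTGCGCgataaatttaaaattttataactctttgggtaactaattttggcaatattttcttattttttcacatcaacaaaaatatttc
Rank 3, chrX:11094121-11094321: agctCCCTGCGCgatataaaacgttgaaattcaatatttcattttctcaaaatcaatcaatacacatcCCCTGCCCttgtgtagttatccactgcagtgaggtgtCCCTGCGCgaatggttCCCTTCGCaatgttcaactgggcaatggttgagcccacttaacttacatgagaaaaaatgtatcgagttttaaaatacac
Rank 6, chrX:6296462-6296662: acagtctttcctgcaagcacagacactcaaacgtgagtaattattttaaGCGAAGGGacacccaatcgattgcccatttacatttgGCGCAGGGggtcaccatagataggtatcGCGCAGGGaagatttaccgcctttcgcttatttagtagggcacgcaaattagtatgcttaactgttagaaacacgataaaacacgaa
Rank 9, chrX:806548-806748: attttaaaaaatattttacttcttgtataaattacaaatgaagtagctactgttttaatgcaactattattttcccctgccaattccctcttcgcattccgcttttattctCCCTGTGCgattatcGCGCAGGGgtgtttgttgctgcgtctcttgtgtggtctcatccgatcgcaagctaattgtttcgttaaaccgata
Rank 4, chrX:9465797-9465997: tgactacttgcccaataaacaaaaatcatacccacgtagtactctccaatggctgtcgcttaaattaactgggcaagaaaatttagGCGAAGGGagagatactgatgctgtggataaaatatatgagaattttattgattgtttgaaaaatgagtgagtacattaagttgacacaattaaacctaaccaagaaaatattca
Rank 5, chrX:13700755-13700955: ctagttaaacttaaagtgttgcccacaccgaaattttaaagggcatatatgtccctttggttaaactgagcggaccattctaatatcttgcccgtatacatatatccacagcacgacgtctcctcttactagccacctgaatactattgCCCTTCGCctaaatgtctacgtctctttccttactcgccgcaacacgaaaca
Rank 7, chrX:12363094-12363294: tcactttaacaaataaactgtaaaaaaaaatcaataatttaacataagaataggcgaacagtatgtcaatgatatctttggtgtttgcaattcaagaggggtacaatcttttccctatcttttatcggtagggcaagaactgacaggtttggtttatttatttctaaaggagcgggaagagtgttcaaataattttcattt

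The regions ranked 4 and 5 had no exact core but each had a copy with the substitution C4A, counted from 1 at the 5′ end of the core, which reads GCGAAGGG. The region ranked 7 had no copy in these 201 bases, and its nearest exact core lay 152 bp from the summit.

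Copies of the core were counted only within 100 bp of the summit, which limits how far from it they can lie. The 11 regions held 13 exact copies, with 2 copies each in the regions ranked 3 and 6. Of the 13, 11 lay within 50 bp of the summit, and the median distance was 18.0 bp. A further 5 exact copies on X lay outside that window, up to 270 bp from the summit of one of the 250 regions, and they are in neither the count nor the median. There were 6 copies on the plus strand and 7 on the minus strand, so neither strand was preferred in these few copies.

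**Figure D1:**
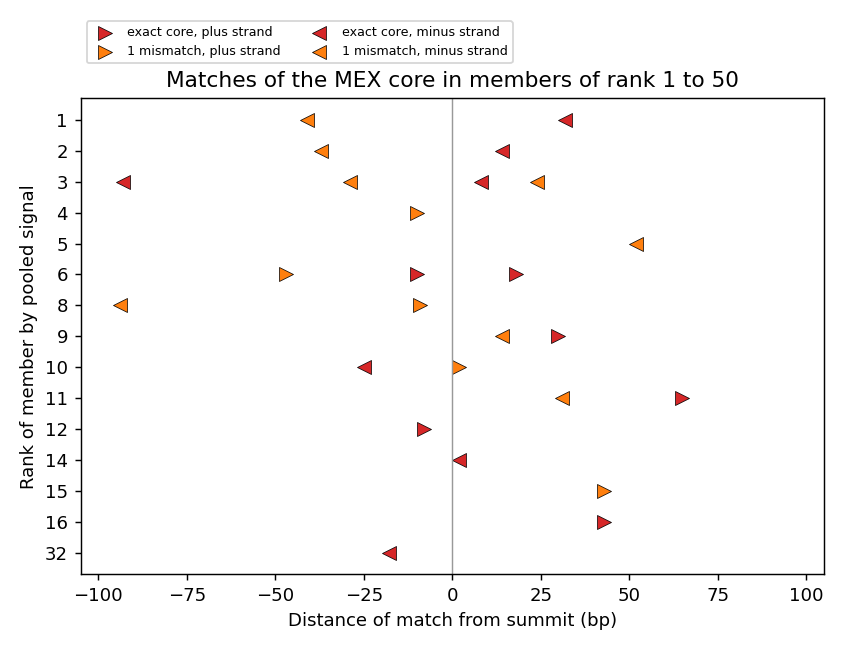
Each arrow is a copy of the MEX core with no mismatch (red) or 1 mismatch (orange) in the regions of rank 1 to 50, placed by its distance in bp from the region's summit (x axis) and by the rank of the region (y axis), and pointing along its strand. Of the 13 exact copies, 11 lie within 50 bp of the summit, and below rank 16 the only copy shown is at rank 32.

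Copies with 1 mismatch were of 1 main kind. The 250 regions held 17 of them, 13 in the 16 highest regions. The substitution C4A made up 9 of the 17, 8 of them in the 16 highest regions, and every other substitution occurred at most 2 times. The word GCGAAGGG was in 9 of the 250 regions (3.60%, interval 1.66 to 6.72%), in 2 of the 2777 other distal X regions (0.0720%, interval 0.00872 to 0.260%) and in 1 of the 250 strongest distal autosomal regions. Of the 16 highest regions, 8 had at least 2 copies with at most 1 mismatch, as the region ranked 3 had with 4 and the region ranked 6 with 3.

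The bases next to the exact core were also alike in part, which shows best when all 13 copies are read 5′ to 3′ on their own strand with the core in capitals. Left and right are by place on the plus strand.
Rank 1: aacatcGCGCAGGGaacatc
Rank 2: tttatcGCGCAGGGaggaag
Rank 3, left copy: tatatcGCGCAGGGagctta
Rank 3, right copy: ccattcGCGCAGGGacacct
Rank 6, left copy: catttgGCGCAGGGggtcac
Rank 6, right copy: ggtatcGCGCAGGGaagatt
Rank 9: attatcGCGCAGGGgtgttt
Rank 10: gctatcGCGCAGGGacacct
Rank 11: aatttaGCGCAGGGaggacg
Rank 12: tttatcGCGCAGGGatattg
Rank 14: aattaaGCGCAGGGatatat
Rank 16: ctcattGCGCAGGGacaccc
Rank 32: cgtatcGCGCAGGGaggaag
Over all 13 exact copies, T stood in 12 at the base 2 before the core and A in 11 at the base just after it. T stood in 10 at the base 4 before it, A in 9 at the base 3 before it and C in 9 just before it. At bases 5 and 6 before the core and 2 to 6 after it, no letter was in more than 5 of 13. In the 13 copies with 1 mismatch of the 16 highest regions, A stood in 10 at the base just after the core. T stood in 7 at the base 2 before the core and C in 5 just before it. A or T also stood in 7 at the bases 3, 5 and 6 before the core and at the base 3 after it. No difference between the 2 kinds of copy was tested.

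The core was also placed over the whole X chromosome, to see which copies had a candidate region. X held 81 exact copies, 4.57 per Mb, and 20 of them (24.7%, interval 15.8 to 35.5%) lay within 100 bp of the summit of a candidate region. The 5 autosomes together held 233 copies, at 2.06 (I) to 3.34 (III) per Mb, of which 12 (5.15%, interval 2.69 to 8.82%) lay so close to a summit. The autosomes were uneven, from 0 of 31 copies on I to 6 of 46 on III (interval 4.94 to 26.3%). The intervals of III and of IV (3 of 43 copies, interval 1.46 to 19.1%) overlapped that of X, and those of I, II and V did not. Of the 20 copies on X, 13 were in the 250 strong distal regions and 7 were at regions within 1000 bp of a gene start. Of the 45 copies on X that were themselves over 1000 bp from every gene start, 15 had no candidate summit within 1000 bp. The share of all positions within 100 or 1000 bp of a summit was not computed for X or the autosomes. These counts therefore have no base share beside them and are given as a description. Cut into windows of 201 bp, 0.0851% of X and 0.0553% of the autosomes held the core, well below its share in the 250 regions.

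The same search was made in other strong regions. Of the 250 strongest distal autosomal regions 1 had the exact core (0.40%, interval 0.0101 to 2.21%). These regions are not a match in height, since their signal ran from 36.4 to 86.9 and that of the X regions from 31.4 to 594. Of the 250 strongest X regions within 1000 bp of a gene start, 5 had the core (2.00%, interval 0.653 to 4.61%), the same share as in the X regions over 2000 bp from a start. These 5 were X 8036318 to 8036476 (signal 253), X 14525845 to 14525954 (234.6), X 1344833 to 1345212 (131), X 4395440 to 4395819 (67.7) and X 489791 to 490170 (35.9). The first 4 thus overlapped in height with the distal regions that held the core, and the position rule alone kept them out. No comparison between these groups was tested.

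The 7 other motifs searched had shares in the 250 regions that were closer to those of the other distal X regions than the core's was. The GA repeat GAGAGA was in 22 of the 250 (8.80%) against 6.45% of the other distal X regions, 13.2% of the strongest distal autosomal regions and 18.8% of the strongest X regions near gene starts. Within the 250 it was in 5 of the 22 regions that the authors' thresholded list holds (22.7%, interval 7.82 to 45.4%) and in 17 of the other 228 (7.46%, interval 4.40 to 11.7%). The T run TTTTTTTT was in 31.2% against 29.0%, with 3 of the 22 (13.6%, interval 2.91 to 34.9%) and 75 of the 228 (32.9%), and the forkhead word TGTTTAC in 2.00% against 3.78%. The intestinal GATA word CTGATAA was in 3.60% against 4.0%, the E box CACGTG in 1.20% against 2.30%, and the nuclear receptor word AAGGTCA in 0.80% against 1.22%. The AP-1 and GCN4 words TGACTCA and TGAGTCA, reverse complements of each other and the kind of site bound by the yeast partner of MBF1, were in 5 regions (2.00%, interval 0.653 to 4.61%) against 1.87%. Of the 22 regions that the authors' thresholded list holds, 0 had these words. The interval of 0 to 15.4% includes the 2.00% of all 250. The E box, intestinal GATA and forkhead words were also in 0 of the 22. With so few regions these counts of 0 cannot show whether a word is lacking. All motifs were searched on both strands, and none of these words contains the MEX core or lies within it.

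Strength was very uneven within the 250 regions, so that the word strong describes few of them. The pooled signal had a median of 35.1, and the 16 highest regions held 28.2% of its sum. Of the 250, 22 were in the authors' deposited list of peaks kept by their irreproducible discovery rate (IDR), which scores how alike the replicates rank them, and these were the 22 highest, at 56.5 to 594. The other 228 lay between 31.4 and 53.6. The last 3 regions inside the limit had 31.47, 31.45 and 31.38, and the first 3 outside it had 31.28, 31.28 and 31.27, so the limit cuts through a continuous run of values. At the limit of distance, the closest regions inside had summits 1004, 1012 and 1013 bp from a start with signals of 39.9, 32.9 and 53.6. The closest regions outside with a signal at or above the lowest member lay at 987, 987 and 982 bp, with signals of 35.1, 67.7 and 40.6.

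**Figure D2:**
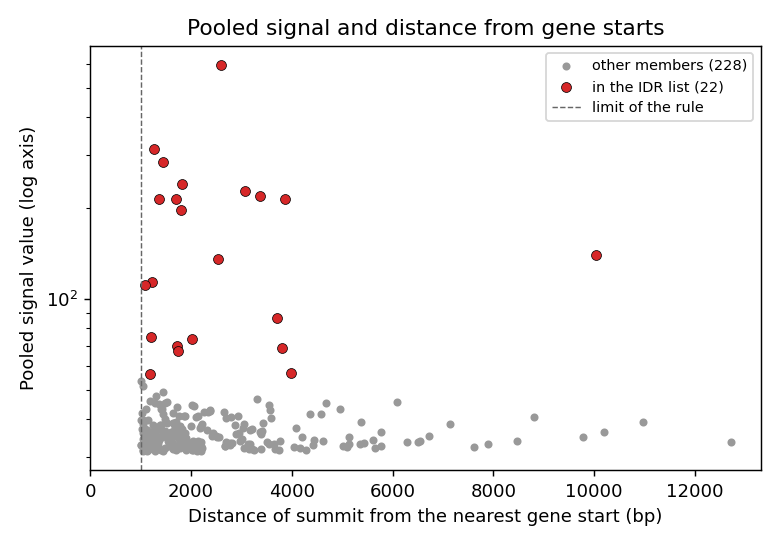
Pooled signal value (log axis) of each of the 250 regions against the distance in bp of its summit from the nearest gene start of any biotype, with the 22 regions in the IDR list in red and the limit of 1000 bp dashed. The red points lie at 56.5 and above and within 3992 bp of a start, except the region ranked 11 at 10030 bp.

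The highest region, X 16682020 to 16682278, had a pooled signal of 594. Its replicate 1 value was 311 and its replicate 2 value 286. It was intergenic, 2603 bp from the start of F22H10.2. The next, X 2997011 to 2997167, had 314, with 168 and 158 in the replicates, and lay in an intron of Y41G9A.17. The third, X 11094140 to 11094322, had 285, with 129 and 149 in the replicates, and its nearest start was that of the tRNA gene WBGene00014538 at 1452 bp. All 3 held the exact core and were narrower than the usual 380 bp, at 259, 157 and 183 bp.

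Ranks 4 to 9 had pooled signals of 214 to 240 and were close to each other in height. The region ranked 4, X 9465707 to 9466086, had 130 in replicate 1 and 111 in replicate 2, and that ranked 5, X 13700665 to 13701044, had 98.4 and 130. Rank 6, X 6296372 to 6296751, lay in an intron of mom-1, which encodes a Porcupine-type enzyme needed to secrete Wnt signals, with 77.3 and 139. Its replicates differed more than those of its neighbours in rank. Rank 7, X 12363004 to 12363383, had 122 and 101 and lay 1710 bp from F19H6.5. Rank 8, X 11937364 to 11937743, had 114 and 98.1 and lay 1372 bp from F55G7.5. Rank 9, X 806458 to 806837, had 104 and 112 and lay 3870 bp from gtr-1. Of these 6 regions 2 held the exact core, 3 held a copy with 1 mismatch and no exact copy, and rank 7 held none.

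Below them the signal fell in steps. Rank 10, X 4209213 to 4209315, had a pooled signal of 197, with 92.3 and 109 in the replicates, and rank 16, X 4208510 to 4208889, lay next to it with 74.8, from 29.9 and 44.6. Both are upstream of F20B6.9, at 1809 and 1215 bp, and both held the exact core. Rank 11, X 5429339 to 5429718, was in a coding exon of pks-1, a very long polyketide synthase gene, with 140 in the pooled list and 74.9 and 60.9 in the replicates. It was the farthest from any start among the 22 regions in the IDR list. Rank 12, X 13514380 to 13514759, had 136, with 74.7 and 58.7, and its nearest coding start was that of the cuticle collagen gene col-185 at 3473 bp. Rank 14, X 2364710 to 2365089, had 111, with 52.7 and 59.4, and lay 1090 bp from T24D8.6. Both of these held the exact core.

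Regions without an exact core made up the rest of the 20 highest. Rank 13, X 1389422 to 1389801, had a pooled signal of 114, with 64.3 and 51.8 in the replicates, 1235 bp from the microRNA gene cel-mir-2221. Rank 15, X 7181534 to 7181913, had 86.5, with 40.4 and 45.7. Rank 15 held the word with C4A and rank 13 held no copy. Ranks 17 and 20, X 11603206 to 11603585 and X 11603487 to 11603866, overlapped each other near the 3′ end of ftt-2, which encodes a 14-3-3 protein. Their pooled signals were 73.8 and 67.4, and in each replicate 1 region covered both, at 45.6 in replicate 1 and 32.4 in replicate 2. Rank 18, X 16664352 to 16664731, had 69.8, with 31.3 and 36.5, upstream of F43B10.1. Rank 19, X 1909351 to 1909730, had 68.7, with 18.5 and 47.7, and was the only region of the 20 whose replicates differed over 2-fold. None of ranks 17 to 20 held a copy of the core with at most 1 mismatch.

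Most of the 250 regions had a candidate region in each replicate list, more often than the other distal X regions. A region in replicate 1 overlapped 234 of the 250 by at least 1 bp (93.6%, interval 89.8 to 96.3%), against 47.0% of the others. A region in replicate 2 overlapped 232 (92.8%, interval 88.9 to 95.7%), against 55.2%. Both replicates had one at 216 (86.4%, interval 81.5 to 90.4%), against 19.7%, and none of the 250 lacked both. The pooled list was made from the same reads and the regions were chosen by its signal, so these shares describe the choice and are no check of it. The shares were alike in the strongest distal autosomal regions (92.8% in both) and the strongest X regions near starts (90.0%).

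The order of the regions in the replicates was compared above and below the end of the IDR list. Over the 216 regions present in both lists, Spearman's rho between replicate 1 and replicate 2 was 0.127, and Pearson's r on the log2 scale was 0.747. For the 22 regions in the IDR list rho was 0.880, with medians of 74.8 in replicate 1 and 60.2 in replicate 2. That list keeps regions which the replicates rank alike, so a high rho within it follows in part from how it was made and is no check of the replicates. For the 194 others with both it was -0.185, with medians of 18.0 and 17.7. These are correlations across regions of the same libraries, given as a description. The 228 span a narrow range of pooled signal, to which both replicates contribute, and how far that sets the negative value was not tested. A few high replicate values among them came from a strong neighbour, as at rank 32 (X 2997129 to 2997508, pooled signal 45.1). Its replicate 2 value of 158 is that of the region which also covers rank 2. Rank 98, next to rank 6, has the same 77.3 and 139 as rank 6, and rank 165, next to rank 15, the same 40.4 and 45.7 as rank 15.

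**Figure D3:**
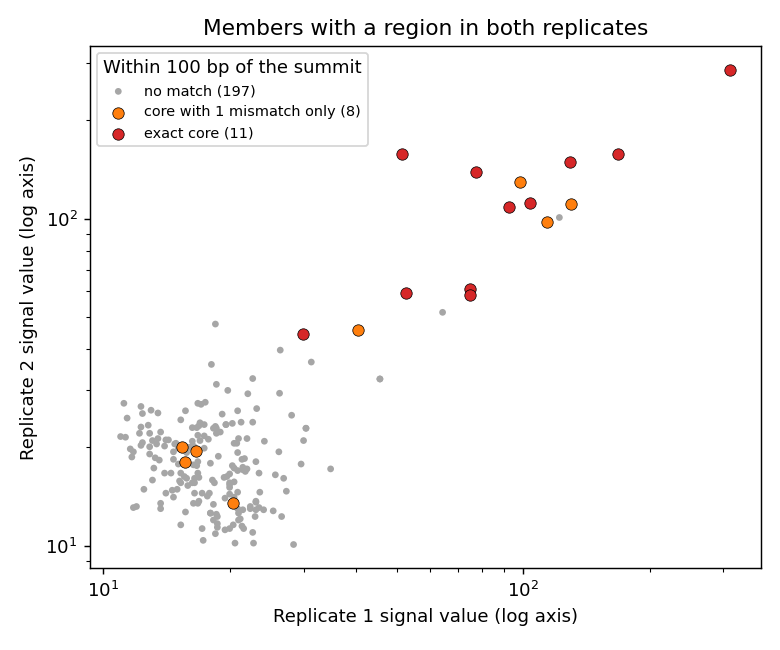
Replicate 1 against replicate 2 signal value (both log axes) for the 216 regions with a candidate region in both lists, coloured by the best copy of the MEX core within 100 bp of the summit. The 11 regions with an exact core have replicate 1 values of 29.9 and above, but regions with no copy reach the same heights, such as rank 7 at 122 and 101 and rank 13 at 64.3 and 51.8.

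Each replicate alone picked a partly different set below the top. The 250 strongest distal X regions of the replicate 1 list, of 1910, overlapped 119 of the 250 (47.6%), and those of the replicate 2 list, of 2384, overlapped 121 (48.4%). Only 47 of the 250 (18.8%) were overlapped by both sets, and 57 by neither. The share of the other distal X regions overlapped by these sets was not counted, so these shares have no base beside them. All of the 16 highest were overlapped by both. The replicates ranked most differently at X 15671948 to 15672327, with 28.4 in replicate 1 and 10.1 in replicate 2. At X 12900411 to 12900790 the values were 11.2 and 27.3, at X 13999963 to 14000342 they were 11.4 and 24.6, and at X 804922 to 805301 they were 12.3 and 26.7. At these 4 regions the replicates differed over 2-fold.

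G+C followed the same division. Mean G+C within 100 bp of the summit was 31.0% ± 5.89 (SD over 250 regions), close to 31.1% ± 5.75 in the other distal X regions. In the 22 regions of the IDR list it was 37.4% ± 5.55, and in the other 228 it was 30.3% ± 5.55. The rise was narrow, at 43.2% and 44.1% in the 20 bp to either side of the summit of the 22 regions. At the same places the 228 had 29.9% and 28.4%, and the other distal X regions 30.4% and 30.7%. The MEX core is itself rich in G and C, but higher G+C was not confined to regions that held it. The regions ranked 17 to 22 had no copy with at most 1 mismatch. Their G+C was 27.9, 34.3, 48.3, 34.3, 37.3 and 39.3%, beside a mean of 37.6% ± 5.26 in ranks 1 to 16. How much the core adds to the rise was not tested.

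**Figure D4:**
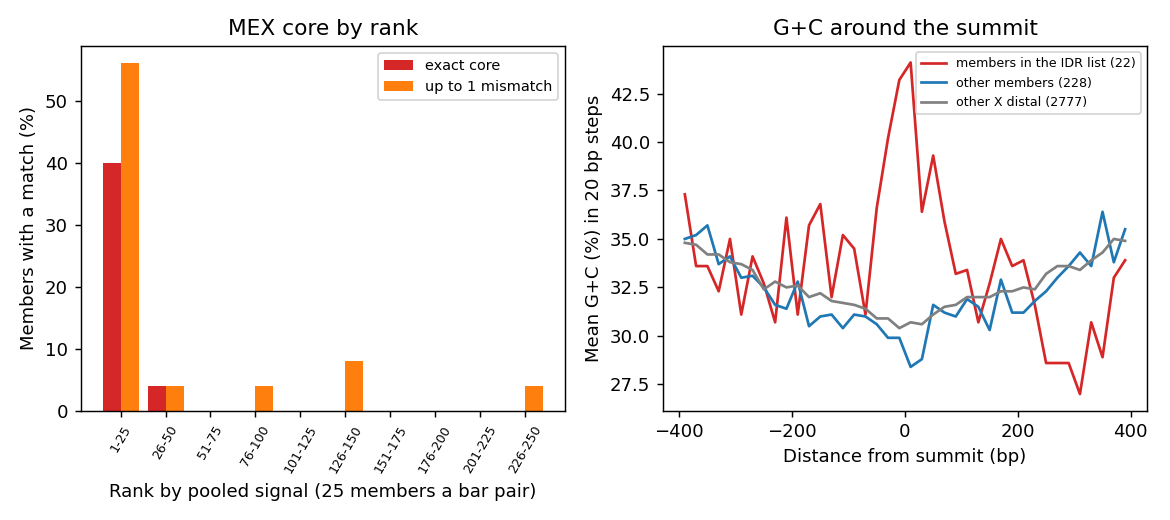
Left, percent of regions with an exact MEX core (red) or a copy with up to 1 mismatch (orange) in steps of 25 by rank of pooled signal. Right, mean G+C in steps of 20 bp around the summit. Of the first 25 regions 10 have the exact core and of the next 25 it is 1, with none after that, and G+C peaks at 44.1% at the summits of the 22 regions in the IDR list.

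By annotation 130 of the 250 summits were intergenic (52.0%, interval 45.6 to 58.3%) and 86 were in introns (34.4%, interval 28.5 to 40.6%). In the other distal X regions the shares were 44.6% and 39.5%. The higher intergenic share was not found with replicate 1 alone. Among the 250 strongest distal X regions of the replicate 1 list it was 43.2%, and among those of the replicate 2 list it was 53.2%. Coding exons held 12 of the 250 (4.80%, interval 2.50 to 8.23%) against 9.0%, 3′ UTRs 15 (6.00%) against 6.01%, and non-coding exons 3 (1.20%, interval 0.248 to 3.47%) against 0.576%. The 5′ UTRs held 4 (1.60%, interval 0.438 to 4.05%) against 8 of the 2777 others (0.288%, interval 0.124 to 0.567%), the largest ratio among these classes but on few regions. Of the 22 regions in the IDR list 19 were intergenic (86.4%), and of the other 228 it was 111 (48.7%). The median distance to the nearest gene start was 1904 bp, with 131 of the 250 at or under 2000 bp and 26 over 5000 bp. The farthest was at 12715 bp.

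Along X the 250 regions were spread over the whole chromosome. Cut into 10 equal segments from the left end, X held 31, 14, 25, 22, 24, 20, 23, 27, 26 and 38 of them. The last segment, at 15.2% of the 250, had 11.1% of the other distal X regions, and the second, at 5.60%, had 9.69%. The 16 highest lay in all segments but the ninth, with at most 3 in a segment. The median distance from a summit to the nearest other was 20155 bp. There were 6 pairs of overlapping neighbours, and 29 regions had another within 1000 bp, so the 250 are not all separate loci. By sequence they were nearly all single copy. In a search with blastn, 245 of the 250 windows of 201 bp (98.0%) matched only their own place at 80% identity over 150 bp, against 96.3% of the other distal X regions. The 5 with further copies ranked 124th or lower.

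The nearest coding genes were counted in 8 families by symbol, each of which took 0 to 6 of the 250 regions. Nuclear hormone receptor genes were nearest to 6 of the 250 (2.40%) against 1.58% of the other distal X regions, and were nhr-1, nhr-3, nhr-17, nhr-27, nhr-32 and nhr-120. The bHLH genes named hlh were nearest to 2 (0.80%) against 0.180%. Both were near hlh-29, and one of them was the region ranked 21 (X 17544457 to 17544836), with a pooled signal of 57.0 and 26.3 and 29.3 in the replicates. Homeobox genes named ceh and FMRFamide-like peptide genes named flp were nearest to 0 of the 250, against 0.684% and 0.576% of the others. Those shares would give fewer than 2 regions in 250, so the counts of 0 cannot show whether such genes are lacking. Genes named lin were nearest to 2 (0.80%) against 0.396%, and were lin-2 and lin-14. Genes named nlp were nearest to 2 (0.80%) against 0.756%, unc to 3 (1.20%) against 1.04%, and col to 1 (0.40%) against 0.324%. No difference between these shares was tested.

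The genes that read the X dose in sex determination lay no nearer to or farther from the 250 regions than is usual on X. Over all 2731 protein-coding gene starts on X, the median distance to the nearest of the 250 was 27684 bp, with quartiles of 11980 and 56352 bp, and the 4 genes measured fell between these quartiles. The nearest of the 250 lay 19760 bp from the start of xol-1 (WBGene00006962, X 8041313 to 8044409), the switch gene, at a region ranked 133. A stronger region with the exact core, X 8036318 to 8036476 (signal 253), lies closer to xol-1. It is within 1000 bp of a gene start and so is not among the 250. For sex-1, a nuclear receptor gene that represses xol-1, the nearest lay at 24729 bp and ranked 27th. It lay at 40193 bp for fox-1, which encodes an RNA-binding protein, and at 53369 bp for ceh-39, a homeobox gene.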

How the data were processed

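Candidate regions in ce11 coordinates were used for the pooled replicates, for each replicate and, with the authors' IDR threshold, for the pooled list. Per the labels' accompanying file lists, they were called from alignments set against a control alignment. No source used here names the caller, its settings or the threshold. The deposited signal value of each region was used to choose, rank and describe regions, and the q field was not used. Depth is unknown, and lists in ce10 were not used.

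Gene starts came from the Ensembl release 115 annotation of WBcel235, and sequence from the RefSeq copy of WBcel235, which is the assembly of ce11. A replicate value is the highest signal among its regions that overlap a member by at least 1 bp. Motifs were counted within 100 bp of the summit, on both strands. Shares carry exact Clopper-Pearson 95% intervals. Sequence copies were counted with blastn 2.17.0 (80% identity over 150 bp), and the rest was computed in Python 3.11.15 with pandas 2.3.3 and scipy 1.17.1. The steps were tested on simulated data. With 1 group of 2 replicates no test between conditions exists, and none was made over regions.

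The members and lists were chosen with earlier results of these data known. The regions named are the 20 highest, those at the limits and the 4 with the largest difference in replicate rank. Divisions at rank 16 and rank 25 and at the IDR list, and the word with C4A, were chosen after the values were seen. Of 5 sex determination genes, sex-2 was not matched by symbol.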

Additional observations from a re-analysis of the deposited data

How the results depend on the processing

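Of 57 alternative values, 33 stayed within the limits set for the main value and 24 moved. The exact MEX core was in 11 of 250 regions (4.40%) and in 5 to 14 regions under all alternatives but 1 mismatch, which gave 19. Its share moved to 2.00% with regions over 2000 bp from a start, 11.0% for the 100 highest and 2.20% for the 500 highest, where the number of regions with the core was 11 in both. Without replicate 1 or 2 the share was 4.40 to 4.80%. The share with a region in both replicates, 86.4%, moved to 72.8% over 2000 bp, 91.6% with protein-coding starts only, 94.0% for the 100 highest, 73.0% for the 500 highest and 64.8% with summits within 100 bp. The intergenic share, 52.0%, moved to 43.2% without replicate 2, below the 44.6% of the other distal X regions, and was 53.2% without replicate 1. Mean G+C, 31.0%, moved to 31.4% over 500 bp, 30.4% over 2000 bp and 33% with protein-coding starts only. It also moved to 31.8% for the 100 highest, 30.4% for the 500 highest and 31.5% without replicate 1. Without replicate 2 it stayed at 31.0%. The median distance, 1904 bp, is set in part by the rule. It moved to 1446 bp over 500 bp, 3072 bp over 2000 bp and 1302 bp with protein-coding starts only. For the 100 highest it was 1842 bp and for the 500 highest 2024 bp, both moved. It also moved to 2026 bp without replicate 1 and 1992 bp without replicate 2. Spearman's rho of 0.127 moved to 0.404 for the 100 highest, and was lower at 0.0657 with overlapping members counted once and 0.0535 at 50% overlap. Pearson's r on log2 signal was 0.747. Where no construction of the alternative shows it, the cause was not tested. No paired analysis was possible because the replicates form 1 group. The unknown depth limits every statement on regions below the 22 in the IDR list.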

Other observations

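Other short words recurred in the highest regions. TATCCACA was found by counting all words of 8 letters after the data were seen, and GGGCAA by looking at the sequences. TATCCACA was within 100 bp of the summit in 5 of the 22 regions of the IDR list (22.7%, exact Clopper-Pearson 95% interval 7.82 to 45.4%), in 1 of the other 228 strong distal X regions and in 14 of the 2777 other distal X regions (0.504%). GGGCAA was in 8 of the 22 (36.4%, interval 17.2 to 59.3%), in 6 of the 228 (2.63%) and in 100 of the 2777 (3.60%). TATCCACA is in the printed sequences of the regions ranked 1, 2, 4 and 5. GGGCAA shares its first letters with the end of the MEX core, but none of the 13 exact copies was followed by CAA. The copy with C4A in the region ranked 5 was followed by CAA and so overlaps this word. The words were picked from these regions and have no test.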
